A study of Mus musculus with 14 samples.

Results

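The genes described here, some of which serve other membrane traffic, come from the families that supply the machinery for synaptic vesicle release. They were chosen by symbol alone, as the synaptotagmins (Syt), syntaxins (Stx), syntaxin-binding proteins (Stxbp), VAMPs, SNAP-25 relatives, complexins (Cplx), RIMs (Rims), Munc13s (Unc13), SV2s and synapsins (Syn) among the genes listed in both RNA-seq libraries of mouse spinal cord. The rule gave 66 of 19215 genes, together with their 59 of 13189 cassette exon entries, which cover 56 distinct exons in 26 of the genes. One of the 66, Sync, codes for syncoilin, an intermediate filament protein that the symbol pattern caught by its spelling, and it is counted but not described as a release gene. A transmitter vesicle fuses with the nerve terminal when VAMP on the vesicle zips together with syntaxin and SNAP-25 on the plasma membrane. Syntaxin-binding proteins and Munc13 prepare that assembly, RIMs tether it to calcium channels at the active zone, complexins hold it ready, and synaptotagmins trigger it when calcium enters. NOVA1 and NOVA2 are neuronal proteins that bind the RNA tetranucleotide YCAY (Y is C or U) and are known to steer alternative splicing and polyadenylation of many synaptic transcripts.

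NOVA-bound RNA was measured by HITS-CLIP, in which RNA is crosslinked to a protein in fresh tissue, immunoprecipitated with it and sequenced. The MN (motoneuron) libraries came from hemizygous Chat:GFP-Nova mice, which carry AcGFP-tagged NOVA2 on a bacterial artificial chromosome (BAC) with the choline acetyltransferase promoter. Anti-GFP antibodies were used on pooled spinal cords of line #6 (4 libraries) and of line #17 (4 libraries). The whole spinal cord (WSC) CLIP libraries (4) came from wild-type cords with an anti-NOVA serum that takes the endogenous proteins, and all CLIP mice were C57BL/6 of 3 months. Antibody, tag, pooling and cell type therefore change together between MN and WSC and cannot be told apart. The promoter is that of all cholinergic neurons, of which the cord also holds some that are not motoneurons. The WSC RNA-seq came from 1 male and 1 female of 12 weeks, both carrying wild-type human SOD1 (Tg(SOD1)2Gur/J) on a B6/SJL background, so every RNA level below was measured in transgenic mice of another background than the CLIP mice. The RNA-seq libraries held 72006019 (male) and 65625173 (female) reads on genes. The CLIP libraries held 46670 to 628586 reads in genes for MN and 1650207 to 4618518 for WSC, so low counts in MN limit the precision of every MN value. Replicate 1 of each MN line was sequenced on another instrument and replicate 2 on another run, while replicates 3 and 4 shared a flow cell with all WSC libraries. Mean read length was 29.8 and 30.2 nt in replicate 1 of lines 6 and 17, 35.6 and 37.0 in replicate 2, and 37.2 in line 17 replicate 3. In the remaining MN libraries it was 49.6 to 53.9 nt, and in WSC 45.3 to 48.1. Of the marker genes, those of motoneurons summed to 1365 to 3420 CPM (reads scaled to a common library total) in the MN libraries and 427 to 571 in WSC, while those of glycinergic and GABAergic neurons summed to 110.1 to 588 and 2773 to 3071.

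Where NOVA reads piled up in these genes is shown first. The later comparisons count reads over whole genes or around cassette exons, not at these positions. The position with most WSC reads, with at least 20 on it, was found in 46 members and lay in the 3′UTR in 36 of them, in an intron in 6 and in coding sequence in 4. YCAY was searched on the transcript strand only, as the DNA letters TCAT or TCAC and as CCAT or its variant ending in C, CCAC, overlaps included. The 101 nt around these positions held a median of 4 YCAY, against a median of 1.71 per 101 nt over the same genes, and 42 of the 46 held more than their own gene's average. That average covers the whole gene span, introns included, so it is not matched to the 3′UTR, where most positions lay. In the 18 members that also had at least 20 MN reads on a position, the MN and WSC positions lay within 50 nt of each other in 9. Positions were chosen for their reads, so these are descriptions without a test. The 30 nt around the highest WSC position in the 3′UTR held no YCAY in Vamp2 and Syn1, both abundant, nor in Rims1, Stx16 and Stxbp6. The sequences below are these 30 nt in 6 other abundant release genes, which do hold YCAY. They run 5′ to 3′ on the transcript strand of the mm9 build, with YCAY in capitals.
Snap25, chr2:136607897-136607926 (+): taaTCACCATctccccgtggtttgTCATca
Vamp1, chr6:125172108-125172137 (+): ttCCACcaaaggcatgtgacatatttacca
Cplx1, chr5:108947909-108947938 (-): gcattgacctTCATgaccttacatagctct
Cplx2, chr13:54483264-54483293 (+): gttaaagCCATatcagttagaccgcaatac
Syt2, chr1:136644763-136644792 (+): ctctTCATtttctggaatgagTCATggaca
Sv2a, chr3:95999272-95999301 (+): cttTCACCATtccgtggctggacgtagcct

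These 3′UTR positions took a large share of their gene's reads, with the reads of each group's libraries pooled. The Vamp1 position held 5726 of 31083 WSC reads of the gene (18.4%) and 791 of 4550 MN reads (17.4%). At the Snap25 position the counts were 8710 of 68521 (12.7%) in WSC and 896 of 11061 (8.10%) in MN. Single MN libraries spread widely, from 0.69% to 23.3% with a median of 5.46% at the Vamp1 position, where the WSC libraries held 15.4% to 21.8%. The highest MN position lay 4 nt from the WSC one in Vamp1, 12 nt in Syt2 and 20 nt in Cplx1, but 275 nt away in Snap25. In Syt7, Sv2b and Rims1 the highest MN position was intronic and the highest WSC position was not. These MN positions rested on 24, 31 and 24 pooled MN reads, near the minimum of 20. They held 10.5%, 4.15% and 1.41% of the gene's MN reads. In Syt14 both highest positions lay in an intron, 7 nt apart, the MN one on 24 of 340 MN reads. Sequences of intronic and coding places follow, with YCAY in capitals. The first 2 are 101 nt around the highest MN position in an intron of Sv2b and of Syt14, the third is 101 nt around the highest WSC position in Syt7, in coding sequence, and the last 2 are 150 nt of intron beside the cassette exons of Rims1 and Syt7 taken up below.
Sv2b intron, chr7:82388076-82388176 (-): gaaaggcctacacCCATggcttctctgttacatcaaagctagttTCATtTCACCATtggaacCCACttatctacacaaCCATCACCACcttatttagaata
Syt14 intron, chr1:194800498-194800598 (-): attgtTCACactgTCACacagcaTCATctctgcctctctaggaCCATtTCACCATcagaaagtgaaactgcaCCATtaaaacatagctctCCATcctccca
Syt7 coding exon, chr19:10518574-10518674 (+): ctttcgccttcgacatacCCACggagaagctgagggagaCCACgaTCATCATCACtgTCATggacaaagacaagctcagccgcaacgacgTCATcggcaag
Rims1, upstream of the 72-nt exon, chr1:22394796-22394945 (-): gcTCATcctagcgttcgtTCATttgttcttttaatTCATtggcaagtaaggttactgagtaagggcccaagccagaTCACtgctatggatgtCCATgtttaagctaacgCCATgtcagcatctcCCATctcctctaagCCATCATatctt
Syt7, downstream of the 228-nt exon, chr19:10497601-10497750 (+): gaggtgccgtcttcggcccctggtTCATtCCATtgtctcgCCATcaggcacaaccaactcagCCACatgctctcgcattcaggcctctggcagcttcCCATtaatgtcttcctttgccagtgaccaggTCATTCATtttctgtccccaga

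The mRNA of many of these genes was abundant in the spinal cord. Of the 66, 59 (89.4%) reached a mean of 1 RPKM (reads per kilobase of exon, scaled to the library's total), a level reached by 62.1% of all genes. Their median was 14.1 RPKM against 3.46 over all genes, 19 of them were in the top 10% of genes and 6 in the top 1%. No test applies with 1 library of each sex, and the values below are given for the male and then the female library.

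Snap25 led the ranking. This protein, the plasma membrane SNARE that supplies a pair of helices to the complex, reached 2029 and 2084 RPKM, which was 38.2% and 40.6% of the summed RPKM of all members. The vesicle SNARE was Vamp1 more than Vamp2, with 273 and 258 RPKM for Vamp1 and 150.2 and 117 for Vamp2. Stx1a, a plasma membrane syntaxin of neurons, had 6.57 and 4.81 RPKM. Other syntaxins serve internal membranes. Of these, Stx7 of the endosome had 70.2 and 68.5 RPKM and Stx12 56.7 and 61.2. Stx4a, a plasma membrane syntaxin found in many tissues, had 45.3 and 49.1 RPKM. Vamp3, Vamp4 and Vamp7, which act in endosomal traffic, lay between 22.2 and 36.8 RPKM. Stx19 was almost silent, with 2 reads in each library.

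Of the proteins that prepare the complex, the syntaxin-binding proteins described here stayed between 2.16 and 21.8 RPKM, and the reads of Stxbp3b, a near copy of Stxbp3a, are uncertain because reads of the copies may have been split between them. Cplx1 (602 and 581 RPKM) lay far above Cplx2 (67.8 and 51.7). The retinal complexins were near 0, Cplx3 with 4 and 8 reads and Cplx4 with 0 and 2. Among the priming factors, Unc13c (39.3 and 34.6 RPKM) and Unc13a (20.8 and 17.9), the general neuronal Munc13-1, were expressed. Unc13b averaged 0.908 RPKM and Unc13d, which serves immune cells, 0.212.

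The calcium sensors were spread widely. Syt11, which does not bind calcium, was the highest synaptotagmin at 232 and 249.9 RPKM. Syt2, the fast sensor of caudal neurons and neuromuscular terminals, had 112 and 95.7 RPKM, above Syt1, the fast forebrain sensor, at 58.1 and 49.1. Syt4 had 62.9 and 75.3 RPKM, Syt3 41.2 and 37.9 and Syt7, a slow high-affinity sensor, 24.5 and 22.6. Syt8 had 2 reads in the male library and none in the female, and Syt15 averaged 0.185 RPKM. The active zone scaffolds were modest in level, at 18.1 and 17.3 RPKM for Rims1, 13.6 and 11.9 for Rims2, 10.1 and 5.98 for Rims3 and 5.73 and 4.87 for Rims4. Of the vesicle proteins, Syn1 (149 and 138 RPKM) stood above Syn2 (39.2 and 33.2) and Syn3 (10.5 and 10.8), and Sv2a (147 and 133) above Sv2b (25.4 and 29.5).

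**Figure D1:**
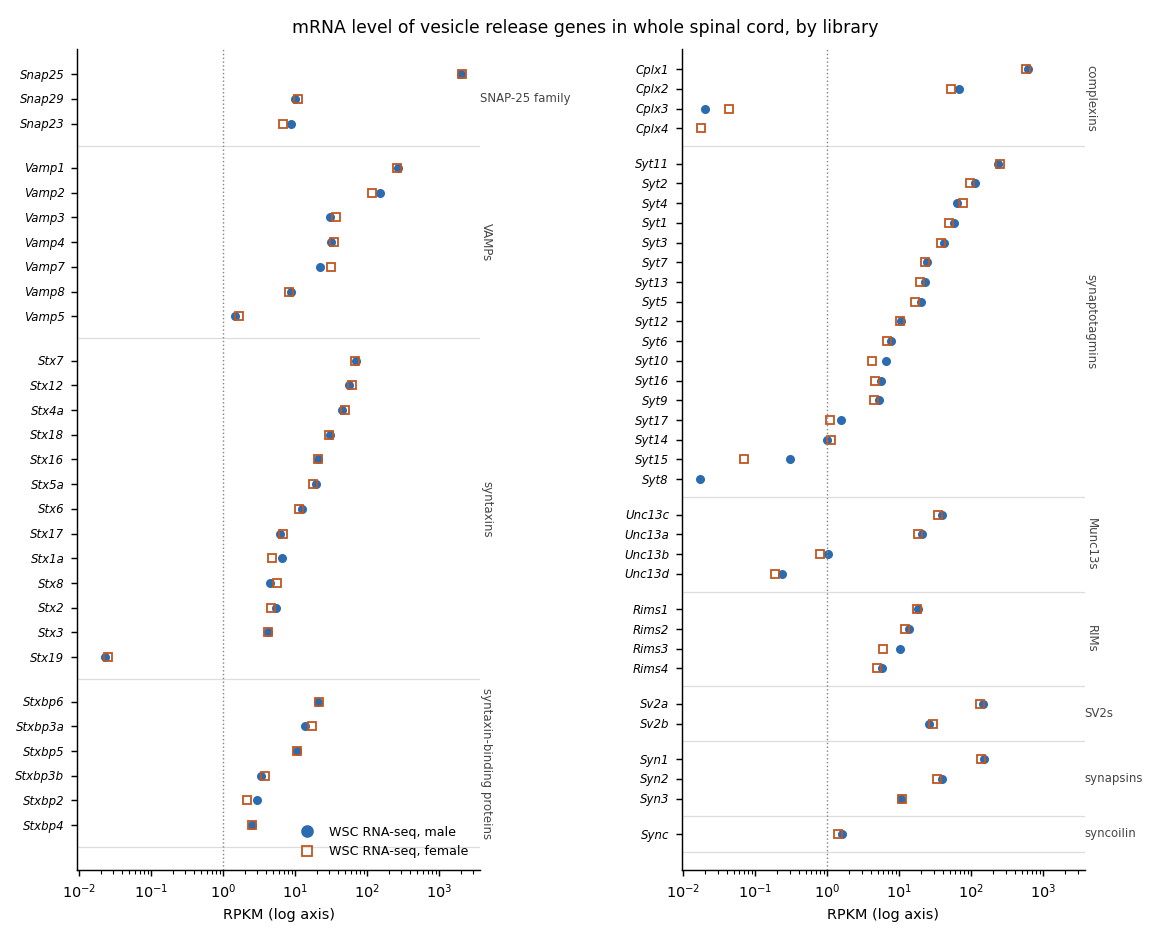
mRNA level in RPKM (log axis) of 64 of the genes by family, filled circles for the male and open squares for the female WSC RNA-seq library, with a dotted line at 1 RPKM; the male value of Cplx4 and the female value of Syt8 are 0 and not drawn. Snap25 stands highest at 2029 and 2084 RPKM, and Cplx3, Cplx4, Stx19 and Syt8 lie under 0.1 RPKM.

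The male and female libraries were close. Over 1.5-fold apart on the log2(RPKM + 0.1) scale were 2 of the 59 expressed members, Rims3 (log2 difference 0.75, male minus female) and Syt10 (0.66), where 3.49% of all expressed genes were. The median difference was 0.11 over the expressed members and 0.01 over all expressed genes, and sex and mouse cannot be told apart. In the WSC CLIP libraries the reads of a member followed its RNA in broad terms. Across the 49 members with at least 100 WSC reads, Spearman's rho between WSC CLIP reads and RNA reads, each scaled to its library total, was 0.81, as a description, since all points share the same libraries and neither value is scaled to length. The ratio of these values ran from 0.205 in Stx5a to 26.1 in Syt14, most of whose CLIP reads were intronic.

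NOVA CLIP reads were then compared between MN and WSC, which asks how the NOVA-bound transcripts of cholinergic neurons differ from those of the whole cord. Reads over the whole gene were compared as counts with edgeR's quasi-likelihood test, adjusted by Benjamini-Hochberg over all genes tested (FDR), and values per library are TMM-normalized CPM. Since the amount of a transcript and the binding of NOVA to it both set its reads, they cannot be told apart here, and fewer cells of a type and less RNA per cell cannot be told apart either. A gene needed enough reads in at least 4 libraries, which 39 of the 66 members had, either through MN or through WSC. At least Cplx2, Rims4 and Unc13a passed through WSC alone, where they were high. The filter thus favored a lower MN value in such members. At FDR ≤ 0.01, 8 of the 39 were higher in MN, where 28.0% of all 4279 genes tested were, and 15 were lower, where 28.7% of all genes were. In 15 of the 39 no MN library overlapped a WSC library, against 28.5% of all genes. The median log2 fold (MN over WSC) of the members was -0.15 and that of all genes tested was -0.02. Members took 2.27% to 2.81% of gene reads in the MN libraries and 2.24% to 2.46% in WSC. Between the MN lines, 0 of the 39 members and 0 of 4279 genes differed at FDR ≤ 0.01 in edgeR's test (3 members at an unadjusted p under 0.05, and 0 and 5 with the replicate number as a block in the MN libraries alone).

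**Figure D2:**
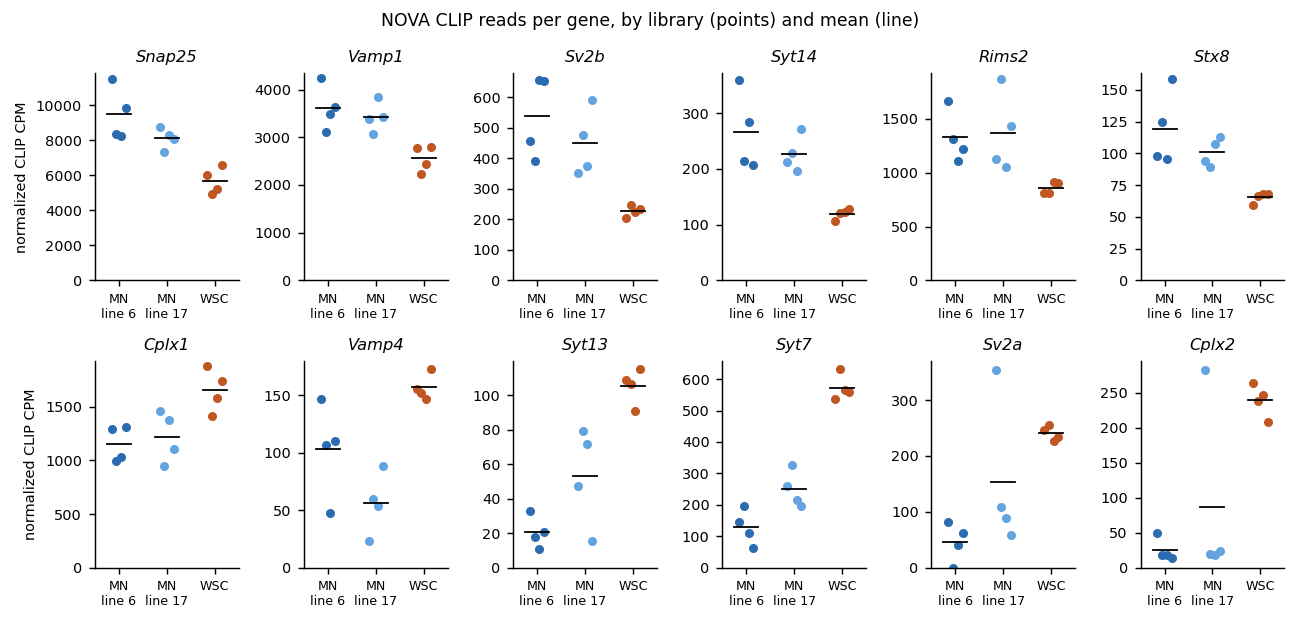
Normalized CLIP CPM (linear axes from 0) of 12 members in each MN line 6, MN line 17 and WSC library, with a line at the mean of each group of 4. Snap25, Vamp1, Sv2b, Syt14, Rims2 and Stx8 are higher and Vamp4, Syt13 and Syt7 lower in every MN library than in any WSC library, while in Cplx2 and Sv2a MN line 17 replicate 1, the smallest library, stands above the WSC libraries and the other MN libraries lie below them.

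Of the synaptic SNAREs described here, Snap25 and Vamp1 were higher in MN. Snap25 ran from 7330 to 11499 CPM with a median of 8325 over the 8 MN libraries, against 5997, 4949, 5224 and 6595 in the 4 WSC libraries. Every MN library was above every WSC library, and the log2 fold was 0.63 ± 0.12 (SE; edgeR FDR = 3.01e-05). Vamp1, likewise without overlap, ran from 3071 to 4241 with a median of 3454 in MN and was 2769, 2227, 2432 and 2804 in WSC (log2 fold 0.46 ± 0.10, edgeR FDR = 0.000317). With line 17 alone against WSC both calls were lost, Snap25 at 0.43 (edgeR FDR = 0.0452) and Vamp1 at 0.35 (edgeR FDR = 0.0656). Vamp2 was not called. Its MN libraries ran from 82.6 to 871 CPM with a median of 182 around the WSC values of 221, 163, 195 and 183 (log2 fold -0.20, edgeR FDR = 0.501), but with only the MN libraries of the WSC flow cell it was lower in MN at -0.81 (edgeR FDR = 2.36e-05). Stx1a had 5 MN and 34 WSC reads and was not tested.

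Among the SNAREs of internal membranes, Stx8, an endosomal syntaxin, was higher in MN. Its MN libraries ran from 89.1 to 158 CPM (median 103), all above the WSC values of 59.5, 66.6, 68.0 and 67.7 (log2 fold 0.77 ± 0.15, edgeR FDR = 4.44e-05). Lower in MN were Vamp4 (log2 fold -0.96 ± 0.17), Stx16 (-0.64 ± 0.15), both of the trans-Golgi network, and Stx7 (-0.51 ± 0.15). For Vamp4 the highest MN library, at 146.8 CPM, came just under the lowest WSC library, at 147.2, and the MN median was 74.0. The Stx7 call (edgeR FDR = 0.00313) was lost without MN line 17 replicate 4, the deepest MN library (edgeR FDR = 0.0287). With either line alone against WSC it was lost too. Line 17 alone also lost the Stx16 call (-0.48, edgeR FDR = 0.0407). Stx12, Stx17 and Stx18 were not called, with log2 folds of -0.05, -0.64 and -0.03, but Stx17 was called lower without MN line 6 replicate 4 (-0.90, edgeR FDR = 0.000775) and without WSC replicate 4 (-0.71, edgeR FDR = 0.00749).

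Several regulators of the complex gave fewer reads in MN. Cplx2 had the lowest log2 fold of the members tested, at -2.95 ± 0.27, 7.74-fold lower (edgeR FDR = 1.15e-10). It ran from 13.8 to 282 CPM with a median of 19.1 in MN and was 263, 238, 247 and 208 in WSC. All MN libraries were below WSC but for MN line 17 replicate 1, the smallest library, where 12 reads gave the 282 CPM, and the log2 fold without that library was -3.41. Cplx1 fell less, from 1885, 1415, 1583 and 1740.1 CPM in WSC to a median of 1196 in MN with a range of 951 to 1459, which overlapped WSC (log2 fold -0.51 ± 0.11, edgeR FDR = 0.000202). Unc13a, on 41 MN reads in all, had a median of 26.5 CPM in MN with a range of 13.8 to 71.5, and 78.7, 89.9, 70.7 and 90.3 in WSC, so that 1 MN library overlapped (log2 fold -1.38 ± 0.22, edgeR FDR = 3.90e-06). Stxbp5 (tomosyn), an inhibitor of SNARE assembly, was lower by a log2 fold of -0.47 ± 0.10 without overlap. Stxbp4, known from insulin-driven glucose transporter traffic, was higher at 0.71 ± 0.17. With line 17 alone both calls were lost (Stxbp5 -0.41, edgeR FDR = 0.0188; Stxbp4 0.62, edgeR FDR = 0.0334). Unc13c, Unc13b and Stxbp6 were not called, at -0.15, 0.69 and 0.16, the Unc13b value with an edgeR FDR of 0.0118. Unc13b was called higher by DESeq2 (0.73, FDR = 0.00981), with line 6 alone (1.12, edgeR FDR = 0.00157) and without any 1 of 4 libraries, MN line 17 replicate 2, 3 or 4 or WSC replicate 3 (0.75 to 0.91), but not with line 17 alone (0.27, edgeR FDR = 0.504). Unc13c was called lower with 10 kb downstream of the gene counted in (-0.42, edgeR FDR = 0.00402).

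The fast calcium sensors Syt2 and Syt1 were not called, though some alternatives called them lower. Syt2 ran from 706 to 1324 CPM with a median of 989.7 in MN, against 1264, 1261, 1202 and 1252 in WSC, with overlap (log2 fold -0.30 ± 0.10, edgeR FDR = 0.0120). It was called lower by DESeq2 (-0.33, FDR = 1.77e-06), with no filter on low counts (-0.51, edgeR FDR = 9.65e-05), with 10 kb downstream counted in (-0.31, edgeR FDR = 0.00763) and without MN line 17 replicate 3 (-0.31, edgeR FDR = 0.00660). Syt1 ran from 740.5 to 2236 with a median of 899.7 around WSC values of 866, 932, 980.0 and 893 (log2 fold 0.09, edgeR FDR = 0.617), and with only the MN libraries of the WSC flow cell it was lower at -0.31 (edgeR FDR = 0.00755). Syt11 (-0.03) and Syt4 (-0.14) were not called. Syt7 was lower in every MN library, at 61.9 to 327 CPM with a median of 196 against 537, 631, 566 and 559.8 in WSC (log2 fold -1.73 ± 0.16, edgeR FDR = 1.02e-10). Syt13, which does not bind calcium, was lower without overlap at -2.07 ± 0.26, on 32 MN reads. Syt3, a high-affinity sensor, was lower at -0.76 ± 0.20 (edgeR FDR = 0.00174), a call lost without MN line 17 replicate 4 (edgeR FDR = 0.0445) and with either line alone (edgeR FDR = 0.0461 and 0.0126). Syt14 went up in every MN library, to 197 to 359 CPM with a median of 221 from 106, 121, 123 and 128 in WSC (log2 fold 1.10 ± 0.12, edgeR FDR = 4.24e-09).

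Rims1 and Rims2, the long scaffolds that bind Rab3, Munc13 and calcium channels, were higher in MN, and Rims3 and Rims4, the short forms that keep only the end of the protein, were lower. Rims2 ran from 1055 to 1872 CPM (median 1271) in MN and was 812, 814, 911 and 903 in WSC, without overlap (log2 fold 0.66 ± 0.12, edgeR FDR = 1.47e-05). Rims1 overlapped between the groups, at 965 to 1780.5 (median 1256) and 938, 959, 1010.2 and 988 (0.42 ± 0.11, edgeR FDR = 0.00126), and its call was lost without WSC replicate 1 (edgeR FDR = 0.0138) and with only the MN libraries of the WSC flow cell (0.28, edgeR FDR = 0.0146) or of line 17 (0.39, edgeR FDR = 0.0308). Rims3 lay at 0 to 65.2 CPM (median 32.7) in MN and at 113, 108, 95.2 and 82.6 in WSC (log2 fold -2.16 ± 0.28), and Rims4, with 13 reads in the 8 MN libraries together, at 0 to 23.5 (median 6.91) and 60.3, 65.7, 56.1 and 57.4 (-2.58 ± 0.32). Neither short form overlapped between the groups. Since Rims4 passed the read filter through WSC alone, its lack of overlap is a description and adds nothing to its call.

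The SV2 pair, membrane proteins of the synaptic vesicle, moved in opposite directions. Sv2b was higher in every MN library, at 353 to 656 CPM with a median of 466, than in WSC, at 204, 246, 225 and 232, which is 2.43-fold (log2 fold 1.28 ± 0.11, edgeR FDR = 4.21e-11). Sv2a ran from 0 to 353 with a median of 71.7 in MN and was 246, 256, 227 and 233 in WSC (log2 fold -1.78 ± 0.22, edgeR FDR = 3.80e-08). Again MN line 17 replicate 1 alone reached above the WSC libraries, on 15 reads. The synapsins, which tether vesicles in the reserve pool, were not called, with log2 folds of -0.11 for Syn1, 0.23 for Syn2 and 0.25 for Syn3 (edgeR FDR = 0.370, 0.104 and 0.0498). With 10 kb downstream counted in, Syn3 turned to -0.33 and was called lower (edgeR FDR = 0.00253).

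**Figure D3:**
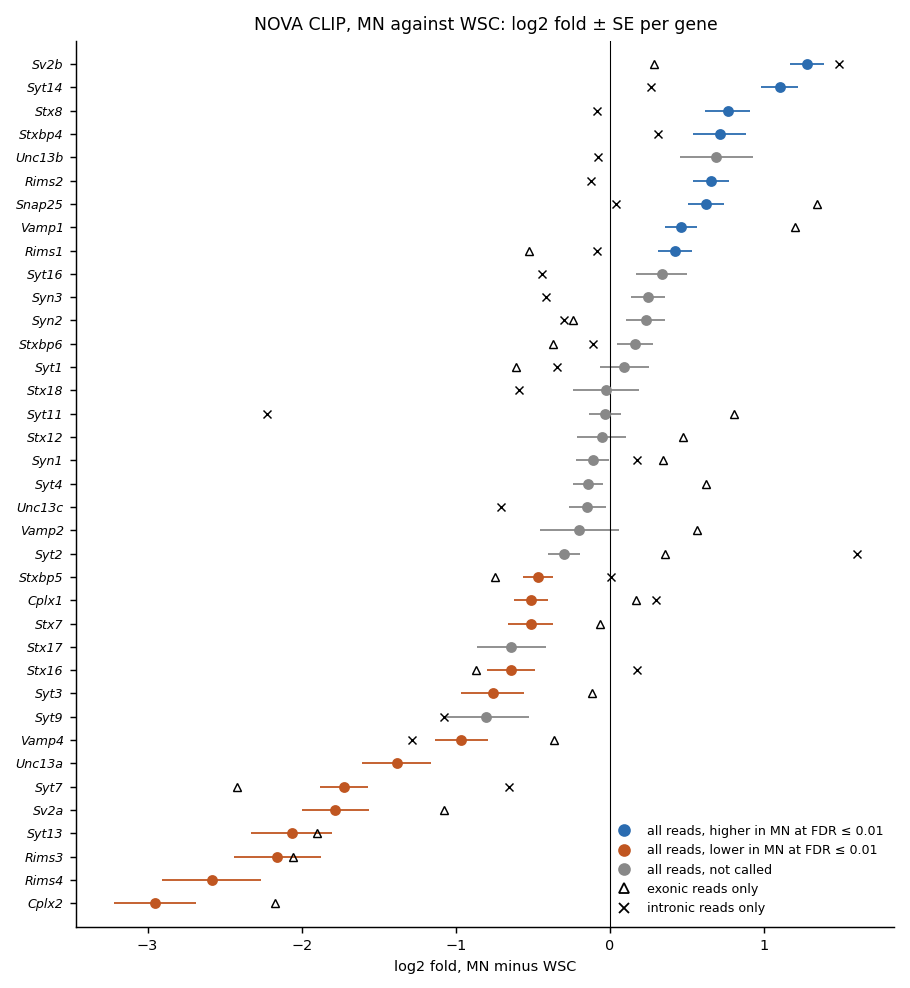
Log2 fold of CLIP reads, MN over WSC, with its standard error for 37 of the 39 members tested, filled circles for all reads of the gene, open triangles for exonic reads alone and crosses for intronic reads alone. Circles run from -2.95 for Cplx2 to 1.28 for Sv2b, and several triangles and crosses lie on the other side of 0 from their circle.

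The kind of read differed between the groups as well, over all genes. Intronic reads made up 52.9% to 66.4% of gene reads in the MN libraries and 33.7% to 38.9% in WSC, and for the members 22.8% to 35.9% and 16.2% to 20.6%. Of the 28 members with at least 100 MN reads, 26 had a higher intronic share in MN than in WSC, as 95.7% of all genes with that many reads did. Of the 14 tested members with over 50% intronic reads in WSC, 5 were higher in MN, where 60.7% of all such genes were, and 0 lower, where 2.80% were. Of the other 25, 3 were higher, where 10.3% of all such genes were, and 15 lower, where 42.7% were. None of the 15 had more than 25.9% intronic reads. Rims2 (94.1% intronic in WSC), Stx8 (97.2%) and Syt14 (98.7%) were among the former, and Cplx2 (0.59%), Sv2a (1.78%) and Rims3 (7.13%) among the latter. Snap25 (5.32%) and Vamp1 (0.15%) were higher in MN though nearly all their reads were exonic, and Sv2b had 40.5% in WSC and 82.9% in MN.

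**Figure D4:**
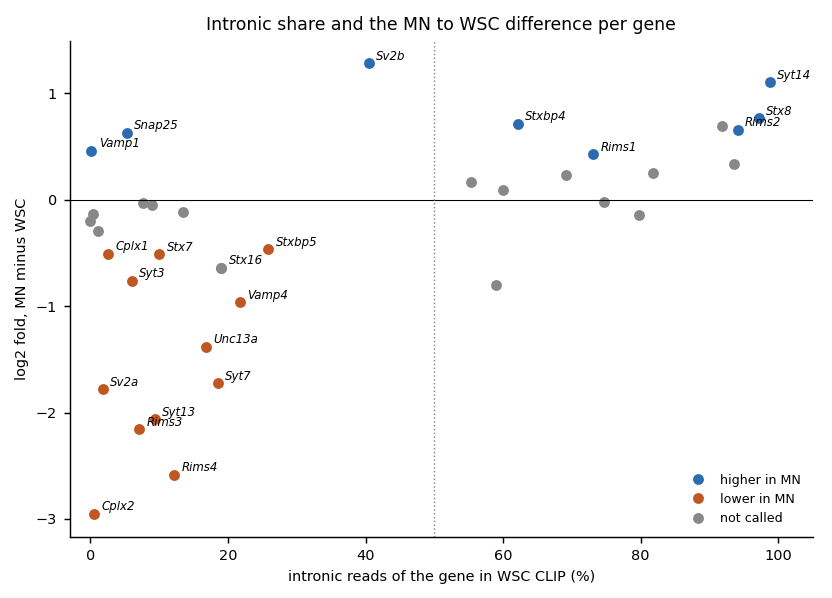
Share of a gene's WSC CLIP reads that are intronic (percent, horizontal axis) against its log2 fold, MN over WSC, for 37 of the 39 members tested, colored by call, with a dotted line at 50%. All members drawn as lower in MN lie at or below 25.9%, and 5 of the 8 higher in MN lie right of 50%. The point of Stx16 is covered by that of Stx17, which was not called.

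Exonic and intronic reads were therefore also fitted apart, a choice made after seeing the data, each normalized to reads of its own kind. In exonic reads 26 members were tested. Snap25 (log2 fold 1.34 ± 0.13), Vamp1 (1.20 ± 0.12), Syt11 (0.80 ± 0.11) and Syt4 (0.62 ± 0.11) were higher in MN at FDR ≤ 0.01, 4 members, against 24.6% of all genes. Lower were 8, against 24.3% of all genes, namely Syt7 (-2.42 ± 0.19), Cplx2 (-2.17 ± 0.28), Rims3 (-2.06), Syt13 (-1.90), Sv2a (-1.08), Stx16 (-0.87), Stxbp5 (-0.75) and Rims1 (-0.52). In intronic reads 25 members were tested. Sv2b (1.49 ± 0.12) and Syt2 (1.61 ± 0.23) were higher in MN, 2 members, against 12.7% of all genes, and 7 were lower, against 13.5%, namely Syt11 (-2.22 ± 0.21), Vamp4 (-1.28), Syt9 (-1.07), Unc13c (-0.71), Syt7 (-0.65), Syn3 (-0.41) and Syt1 (-0.34). Syt7 was lower in both kinds of read. Sv2b, higher in intronic reads, had an exonic log2 fold of 0.29 that was not called (edgeR FDR = 0.132). Syt11 was higher in exonic and lower in intronic reads, and Rims1 lower in exonic reads though higher in all reads. For Cplx1, called lower over all reads, the exonic log2 fold was 0.17 and not called (edgeR FDR = 0.199). Vamp4 (-0.37, edgeR FDR = 0.155), Stx7 (-0.064, edgeR FDR = 0.745) and Syt3 (-0.11, edgeR FDR = 0.674) lost their lower call in exonic reads as well. Rims1, Rims2, Stx8, Stxbp4 and Syt14 were called higher over all reads and were mainly intronic in WSC. Their intronic log2 folds of -0.086, -0.12, -0.082, 0.31 and 0.27 were not called either (edgeR FDR = 0.0533 for Syt14).

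The cassette exons of these genes were read from the WSC RNA-seq. Cassette exons are either kept in a transcript or left out as a whole, and inclusion was the mean of its inclusion junction reads over that mean plus the skipping reads. Of the 59 entries, 48 in 22 genes had at least 10 junction reads in each library. Inclusion was between 10% and 90% in 19 of these, in 12 genes (39.6%, against 27.4% of all 9396 covered entries), above 90% in 21 and below 10% in 8. The length was a multiple of 3, which keeps the reading frame, in 9 of the 19 (47.4%, against 60.4% of all entries of intermediate inclusion).

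Among the well covered exons was one of 166 nt in Stx16 (chr2:173917903-173918068), included at 89.4% (95% Wilson interval 83.0% to 93.6%) in the male and 86.9% (79.2% to 92.0%) in the female library. It shares its end, and so its downstream junction reads (128 and 109), with an overlapping 155-nt entry, for which the rates came out at 82.6% and 79.6%. Only 5 male and 0 female reads lay on that entry's own upstream junction, against 108 and 77 for the 166-nt exon. The rates of the 155-nt entry thus rest on the shared junction and do not show its use. Intervals cover counting error only. In Stx4a a 99-nt exon (chr7:134992083-134992181) was included at 62.0% and 66.2%. In Syt6 a 68-nt exon (chr3:103434825-103434892), whose length breaks the frame, was included at 33.3% and 32.1%. Other intermediate exons lay in Stx18 (68 nt, 93.7% and 86.0%), Stx1a (75 nt, 94.1% and 85.2%) and Stx3 (100 nt, 72.2% and 81.8%). An 80-nt exon of Syt1 was almost always skipped, at 3.61% and 1.49% inclusion.

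Syt7 and Rims1 each carried several such exons. In Syt7, whose linker between membrane anchor and calcium-binding domains is spliced, a 132-nt exon (chr19:10496247-10496378) was included at 60.3% and 41.2% in one entry and at 100% in an entry with other flanking exons, and a 228-nt exon (chr19:10497275-10497502) at 60.8% and 79.3%. In Rims1 an exon of 72 nt (chr1:22394525-22394596) was included at 25.8% and 26.9%, and a further exon of 84 nt (chr1:22402292-22402375) at 41.9% and 64.2% in one entry and 91.7% and 68.2% in another. Upstream and downstream inclusion junctions of the 72-nt exon had 1 and 24 reads in the male and 7 and 7 in the female library. For the entry at 91.7% and 68.2% they had 19 and 3 reads in the male and 29 and 1 in the female, so these rates are uncertain. No member entry differed between the libraries at FDR ≤ 0.1 in Fisher's exact test (7 at an unadjusted p under 0.05), where 4.26% of all covered entries did, and the junction reads alone gave 0 as well. The nearest was a 46-nt exon of Stx3, named after its values were seen, at 78.6% (52.4% to 92.4%) and 30.8% (12.7% to 57.6%) with an exact Fisher FDR of 0.113. These tests compare 2 libraries, not the sexes.

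**Figure D5:**
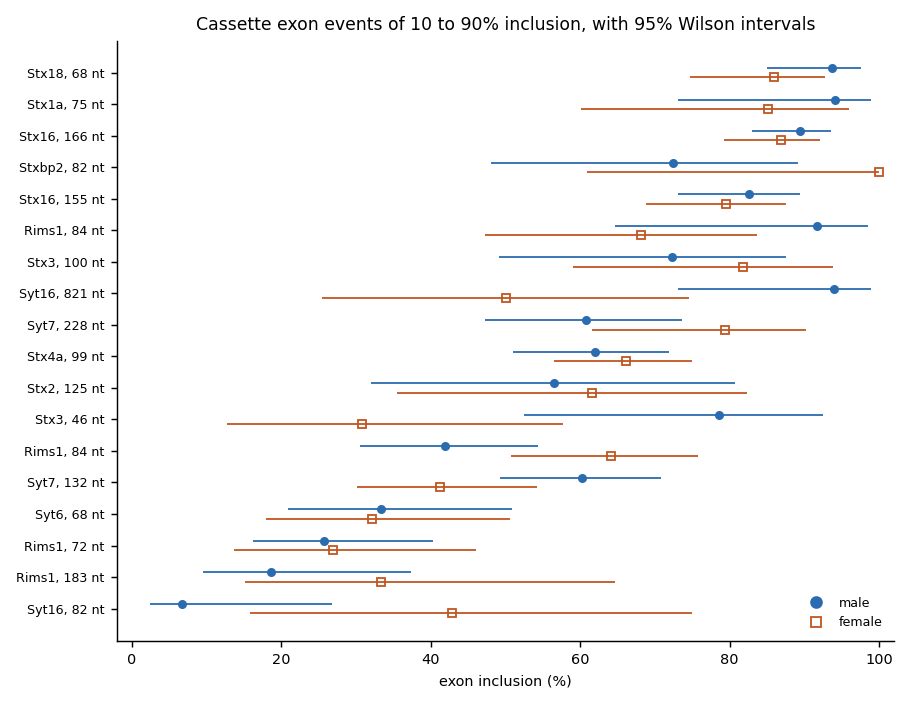
Inclusion (percent) of 18 of the 19 cassette exon entries of intermediate inclusion in the male (filled circles) and female (open squares) WSC RNA-seq library, with 95% Wilson intervals. The intervals of the Stx16 166-nt exon are among the narrowest, and those of exons with under 20 junction reads in a library, such as in Stx3 and Syt16, are wide.

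NOVA reads near these exons were few. Binding downstream of a cassette exon is known to favor its inclusion and binding upstream or within it its skipping. Of the 56 exons, 22 had at least 10 WSC reads on the exon or within 400 nt of it, 5 had at least 10 MN reads, and 6 had no WSC read. The flanking 400 nt held a YCAY beside nearly every one of 12375 cassette exons (99.5% of downstream and 99.5% of upstream flanks), with a median of 6 in each. At least 20 YCAY in a flank were found at 2 member exons. The 72-nt exon of Rims1 had 22 in its upstream flank, a count of 20 or more being found in 0.129% of all upstream flanks, with 266 WSC and 53 MN reads on that flank. The 228-nt exon of Syt7 had 21 in its downstream flank (0.178% of all downstream flanks had 20 or more), with 369 WSC and 44 MN reads.

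Reads in each exon with its flanks were then compared between MN and WSC relative to the other reads of the same gene, in edgeR at FDR ≤ 0.1. Enough reads were found at 46 exons in all, and 2 of these were member exons, the same Rims1 and Syt7 exons. Both were higher in MN, where 26.1% of the windows tested were higher and 37.0% lower. At the Syt7 exon, 47 of 228 MN gene reads (20.6%) and 371 of 7327 WSC gene reads (5.06%) fell in the window (log2 fold 2.17 ± 0.32, edgeR FDR = 1.23e-06). The MN reads came from every library, but 24 of the 47 came from MN line 17 replicate 4, the deepest MN library, and the others gave 1 to 6 each. Without that library no member window had enough reads for a test. Against the other intronic reads of Syt7 alone, the flanks of the exon had a log2 fold of -0.070, so the difference was not seen within intronic reads (edgeR FDR = 0.961). At the Rims1 exon, 73 of 1698 MN reads (4.30%) and 337 of 12272 WSC reads (2.75%) lay in the window (log2 fold 0.74 ± 0.26, edgeR FDR = 0.0170). This call was lost without MN line 17 replicate 2, which held 17 of the 73 reads (0.46, edgeR FDR = 0.143), with only the MN libraries of the WSC flow cell (0.43, edgeR FDR = 0.163), and for its flanks against the other intronic reads of Rims1 (0.59 ± 0.46, edgeR FDR = 0.437). With a looser filter chosen after seeing the data, at least 10 reads in each group together, a 90-nt exon of Rims1 (chr1:22411822-22411911) was higher in MN as well, with 27 MN and 72 WSC reads in its window (2.83-fold, edgeR FDR = 0.00397), also for its flanks against intronic reads (log2 fold 1.47, edgeR FDR = 0.0467).

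The other genes of vesicle release gave a background for these values. Of 65 such genes, 35 were tested in CLIP, with a median log2 fold of -0.36. Of the 35, 7 were higher in MN, where 28.0% of all 4279 genes tested were, and 16 lower, where 28.7% were, and 12 were not called. Those highest in MN were the active zone proteins Ppfia2 (liprin-alpha2, log2 fold 1.35 ± 0.09) and Rimbp2 (1.29 ± 0.13), which links RIM to calcium channels, and Apba2 (1.02 ± 0.11). In the active zone list as a whole 5 of 10 tested genes were higher and 3 lower, beside the same shares of all genes. Of all genes with over 50% intronic reads in WSC, 60.7% were higher, and the intronic share of the active zone list was not examined. Lowest in log2 fold among the 35 were the transporters that load GABA and glycine, Slc32a1 (-4.19 ± 0.30), and glutamate, Slc17a6 (-3.51 ± 0.16), which mark other neurons than motoneurons, and the vesicle protein Syngr1 (-1.66 ± 0.23). The highest mRNA levels in this list were those of Rab3a (429 and 397 RPKM), the vesicle GTPase that RIMs bind, Rph3a (236 and 209.8), its effector, and Atp6v1b2 (217 and 233), a subunit of the vesicle proton pump.

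The markers of cell types moved with the same comparison, and their part in the members' results was not tested. All 3 motoneuron markers tested were higher in MN, Chat (log2 fold 3.09), Chodl (2.49) and Slc5a7 (2.25), of which Chat is also the locus on the transgene's BAC. All 4 glycinergic and GABAergic markers and the tested glutamatergic marker were lower, as were 3 of 3 tested astrocyte markers (summed CPM 1011 to 2001 in MN and 2383 to 3097 in WSC) and 1 of 3 tested oligodendrocyte markers (552 to 1544 and 1364 to 1699). No marker of microglia, endothelium, Schwann cells or muscle had enough CLIP reads for a test, and Cldn5, Myh4 and Ckm had no CLIP read in any library.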

How the data were processed

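The authors aligned CLIP reads to mm9 with Novoalign, collapsed duplicates by a random barcode and deposited 1 file of read positions per library, whose score column was not used here. The submitters' processing notes list mm9 and mm10 without their roles; the coordinates match mm9. For the WSC RNA-seq the authors trimmed reads, aligned them to mm9 with OLego and deposited, from Quantas, read counts and RPKM per gene and junction read counts per cassette exon. Depth per library is given in ranges in the results.

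Reads were counted here on the transcript strand per gene span and per exon window of 400 nt on each side. Gene counts of 8 MN and 4 WSC libraries were compared with edgeR 4.0.16 (TMM, filterByExpr with a minimum count of 10, quasi-likelihood test, FDR ≤ 0.01) and windows with the gene's other reads plus 0.5 as offset (FDR ≤ 0.1). Both lines formed 1 group. RNA levels are RPKM as deposited, with a pseudocount of 0.1 on the log2 scale. Exon inclusion used at least 10 junction reads in each library, 95% Wilson intervals and Fisher's exact test with Benjamini-Hochberg adjustment. CLIP replicates are biological replicates in the study's methods, each MN one a pool of cords, so p-values measure the spread between such libraries. Alternatives were DESeq2 1.42.0, other filters, thresholds and counting regions, each line alone, a replicate block, the MN libraries of the WSC flow cell, leaving out each library, and, chosen after seeing the data, exonic or intronic reads alone, other window filters and a replicate block between the MN lines.

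Genes named are the core release genes, the 20 members of highest RPKM, members called in CLIP, members under 0.1 RPKM or over 1.5-fold apart, the best covered exons of 10% to 90% inclusion, called windows, and the 3 other pathway genes most changed each way and the 3 highest in RPKM; others are given by counts and ranges or where a contrast within a family needed them. The members and gene lists were chosen with earlier results of these data known. Of the 66 members, Vamp7 could not be placed in the mm9 annotation and has no CLIP value. Sv2c, Snap47 and Stx11 are not among the 66 and are not analysed here. The counts over members include 2 genes whose own values are not reported here. The scripts were tested on simulated data. R 4.3.3, Python 3.11.15, pandas 2.3.3, numpy 2.4.6, SciPy 1.17.1 and matplotlib 3.10.9 were used.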

Additional observations from a re-analysis of the deposited data

Results flagged for a closer look

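A library stood far from the other 3 of its group of 4 by Dixon's criterion in 8 of 117 groups of member values (6.84%), where chance gives about 1 in 20. MN line 17 replicate 1, the smallest library, was high for Cplx2 at 282 CPM (others 17.9 to 24.3), for Sv2a at 353 (59.1 to 109) and for Vamp2 at 871 (116 to 197). MN line 6 replicate 1 was high for Cplx2 at 48.9 (13.8 to 18.4) and low for Stx18 at 16.3 (53.4 to 55.3), the latter on 1 read. Unc13c was high in MN line 17 replicate 2 at 535 (304 to 334). WSC replicate 1 was low for Stx8 at 59.5 (66.6 to 68.0) and for Syn3 at 264 (326 to 336).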

How the results depend on the processing

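Of the 23 members called in CLIP, 14 kept their call under each alternative that tested them, exonic or intronic reads alone aside, and all 23 kept their direction there; Rims4, among the 14, had too few reads for a test in 6 of 12 fits that left out a library. Against 8 higher and 15 lower, line 17 alone gave 4 higher, intronic reads alone 2 higher and 7 lower, and exonic reads alone 4 higher and 8 lower; leaving out each library gave 7 to 9 higher and 12 to 17 lower. Among members called in either fit, the direction turned in intronic reads for Cplx1 (0.30), Rims1 (-0.086), Rims2 (-0.12), Stx16 (0.18), Stx8 (-0.082), Stxbp5 (0.0089), Syn3 (-0.41), Syt1 (-0.34) and Syt2 (1.61), in exonic reads for Cplx1 (0.17), Rims1 (-0.52), Syt4 (0.62) and Syt11 (0.80), for Syn3 (-0.33) with 10 kb downstream, for Syt1 (-0.31) with the MN libraries of the WSC flow cell, and for the Syt7 exon flanks against intronic reads (-0.070). The cause was not tested. Calls of Snap25 (0.43), Vamp1 (0.35), Rims1 (0.39), Stx7 (-0.58), Stx16 (-0.48), Stxbp4 (0.62), Stxbp5 (-0.41) and Syt3 (-0.79) were lost with line 17 alone, those of Stx7 (-0.43) and Syt3 (-0.70) with line 6 alone, that of Cplx1 (-0.20, edgeR FDR = 0.107) with reads of the same position counted once, and those of Vamp1 (0.23), Rims1 (0.21) and Stxbp4 (0.54) with no filter on low counts, where the median log2 fold of all genes was -0.24. Of the member windows, 2 of which were higher and 0 lower, 1 was higher and 1 lower with the MN libraries of the WSC flow cell, the lower one in Rims2 (-1.53), and for flanks against intronic reads 1 was higher, a 90-nt exon of Rims1 that was not among the 2, both of which lost their call; leaving out a library gave 1 to 2 higher and 0 to 0 lower, the count of 1 without MN line 17 replicate 2. No member window had enough reads with 200 nt flanks, without MN line 6 replicate 3 or MN line 17 replicate 4, or without any of the WSC replicates. With a pseudocount of 1, 1 member and not 2 was over 1.5-fold apart. Leaving out an RNA-seq library gave 59 to 59 expressed members and 17 to 19 intermediate exons.

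The replicate numbers did not pair MN with WSC, all of whose libraries shared a flow cell: deviations of same-numbered libraries correlated at -0.0594 to 0.0354. Between the MN lines, where the number marks the instrument or run, they correlated at 0.0476 to 0.193 (median 0.13, against -0.056 for different numbers), and a block on the number in the MN libraries left the count of members that differ between the lines at 0. With the replicate block, 8 members were higher and 13 lower, Stx7 (edgeR FDR = 0.0309) and Syt3 (edgeR FDR = 0.0121) being lost, and 2 windows were higher and 0 lower. The MN libraries, of 46670 to 628586 gene reads, limit what could be tested to 39 of 66 members.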
